A study of Mus musculus with 24 samples.

Results

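The mitochondrial chromosome of the mouse carries 37 genes, of which 13 code for messenger RNAs (mRNAs), 2 for ribosomal RNAs (rRNAs) and 22 for transfer RNAs (tRNAs). They were taken as the entries of the deposited count table whose Ensembl identifier lies on chromosome M in the GENCODE mouse annotation, and 37 of 37 were found among the 53700 genes of the table. Together they held 9.95% of the counts of the 24 libraries, between 3.86% and 41.7% of a single library. The libraries came from mice labelled as lacking Bmal1 in RPE cells (RPE Bmal1 KO, below KO) and from their controls (RPE Bmal1 WT, below WT) at 4 time points (ZT1, ZT7, ZT13 and ZT19, where ZT is zeitgeber time in hours from lights on), with 3 mice in each of the 8 groups and RNA pooled from both eyes of a mouse. All mice were C57BL/6, 12 to 16 weeks old, of both sexes, kept in 12 h of light and 12 h of dark, and carried floxed Bmal1 alleles (Bmal1 fl/fl) with an inducible Cre that an RPE promoter (Vmd2) drives through rtTA. A reporter cross of the study also showed rare Cre activity outside the RPE, in the plexiform layers of the retina. By the study's methods KO mice received doxycycline food from postnatal day 60 to 74 and WT mice of the same cross a control diet, although the labels name doxycycline food for all 24 samples. The sex of each mouse is not given in the sources used here.

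Mitochondria keep a small circular chromosome that is read from both strands into long precursor RNAs, and the tRNAs that sit between the other genes are cut out to free the mRNAs and rRNAs. The mRNAs code for core subunits of the respiratory chain and the ATP synthase, while the polymerase, the processing enzymes and all other subunits come from nuclear genes. The retinal pigment epithelium (RPE) is a single cell layer rich in mitochondria that serves the photoreceptors, and it is known for meeting much of its energy need by oxidative metabolism. Pieces of mitochondrial sequence also lie copied in the nuclear chromosomes, where reads from the mitochondrial gene can align equally well.

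Total counts per library ran from 2069527 to 10572612. All 8 RPE markers, among them Rpe65 and Rgr, were detected, and their summed level was 1494 to 2620 CPM (counts of a gene for every 1000000 counts of the library) in KO and 412 to 3417 CPM in WT libraries. The tissue was loosened from posterior segments that also hold choroid and sclera, and other cells were present: the 8 rod markers summed to 565 to 12970 CPM in KO and 324 to 12408 CPM in WT, and the 8 striated muscle markers to 9143 to 41436 CPM in KO and 8328 to 42081 CPM in WT, with no marker at 0 throughout. Muscle was over 30000 CPM in 3 KO and 6 WT libraries, a limit chosen after the values were seen. Olfactory and vomeronasal receptor genes stood above 500 CPM in 5 libraries, namely the first KO replicates at ZT1, ZT7 and ZT13 and the first WT replicates at ZT7 and ZT19. Arntl, which codes for BMAL1, was at 20.2 to 99.5 CPM (median 42.6) in KO and 5.32 to 74.9 CPM (median 42.7) in WT libraries. At ZT1 all KO libraries, with 95.5 to 99.5 CPM of Arntl, lay above all WT libraries, with 35.4 to 73.7 CPM, and at the other time points the genotypes overlapped. Since these counts cover the whole gene, also its undeleted parts, and all cells of the sample, they do not check the labels, and KO and WT below follow the labels and the diets that name the count columns.

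Of the 13 mRNAs, 6 were close to absent from the count table and 7 were among its most abundant genes. mt-Co2 and mt-Co3, subunits of cytochrome c oxidase, mt-Atp6 and mt-Atp8, subunits of the ATP synthase, and mt-Nd3 and mt-Nd4l, subunits of complex I, had 0 to 6 counts in any library and 154 counts over all 24. The lowest count of any of the other 7 mRNAs in any library was 5261. The 6 genes are neighbours, and all lie in a stretch of 4653 bases (chrM:6390-11042, mm10) that a block of 7 annotated pseudogenes on chromosome 1 repeats in the reference genome (chr1:24611535-24616197, minus strand). The pseudogenes aligned over 4140 bases to mt-Co1, mt-Co2, mt-Atp6, mt-Co3, mt-Nd3, mt-Nd4l and mt-Nd4 with 2 substitutions in all, and 5 of the 7 had none. Read from the member to the copy and counted from the first base of the member, the substitutions are T3C in mt-Nd3 and A1066T in mt-Co1.

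The starts of 2 of these genes and of their copies on chromosome 1 are printed to show how little separates them. Sequences are those of the GENCODE M21 transcripts on mm10, 5′ to 3′ along each gene, and the capital in the first pair marks the base that differs. The first lines are mt-Nd3 (chrM:9459-9520, plus strand) and Gm28438 (chr1:24613058-24613119, minus strand), and the others mt-Nd4l (chrM:9877-9996, plus strand) and Gm10222 (chr1:24612581-24612700, minus strand), which hold the same letters throughout.
mt-Nd3: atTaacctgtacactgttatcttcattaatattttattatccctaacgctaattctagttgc
Gm28438: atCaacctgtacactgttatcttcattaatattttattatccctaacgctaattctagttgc
mt-Nd4l: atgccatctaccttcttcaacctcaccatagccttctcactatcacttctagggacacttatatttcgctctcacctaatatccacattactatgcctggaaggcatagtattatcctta
Gm10222: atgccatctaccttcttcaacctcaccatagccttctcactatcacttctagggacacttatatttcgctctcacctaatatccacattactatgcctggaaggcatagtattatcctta

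The pseudogenes themselves had 0 to 16 counts in any library and 459 over all 24, so that neither copy of the stretch held many counts. The authors used uniquely aligned reads. Of the other genes in the stretch, 5 tRNAs (mt-Ts1, mt-Td, mt-Tk, mt-Tg and mt-Tr) had 1 count in all. Low counts were not particular to these tRNAs, since 7 of all 22 had no count and 10 had 1 to 32 over all libraries. The pseudogene match covers 31.3% of the length of mt-Co1 and 63.6% of that of mt-Nd4, both of which reach out of the stretch and were counted in every library, and it covers only 21.1% of mt-Atp8, for which the block has no annotated pseudogene of its own. For the 6 genes the table therefore gives no usable level in either genotype, and they are left out of all comparisons below except as part of the mRNA sum, to which they add next to nothing.

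**Figure D1:**
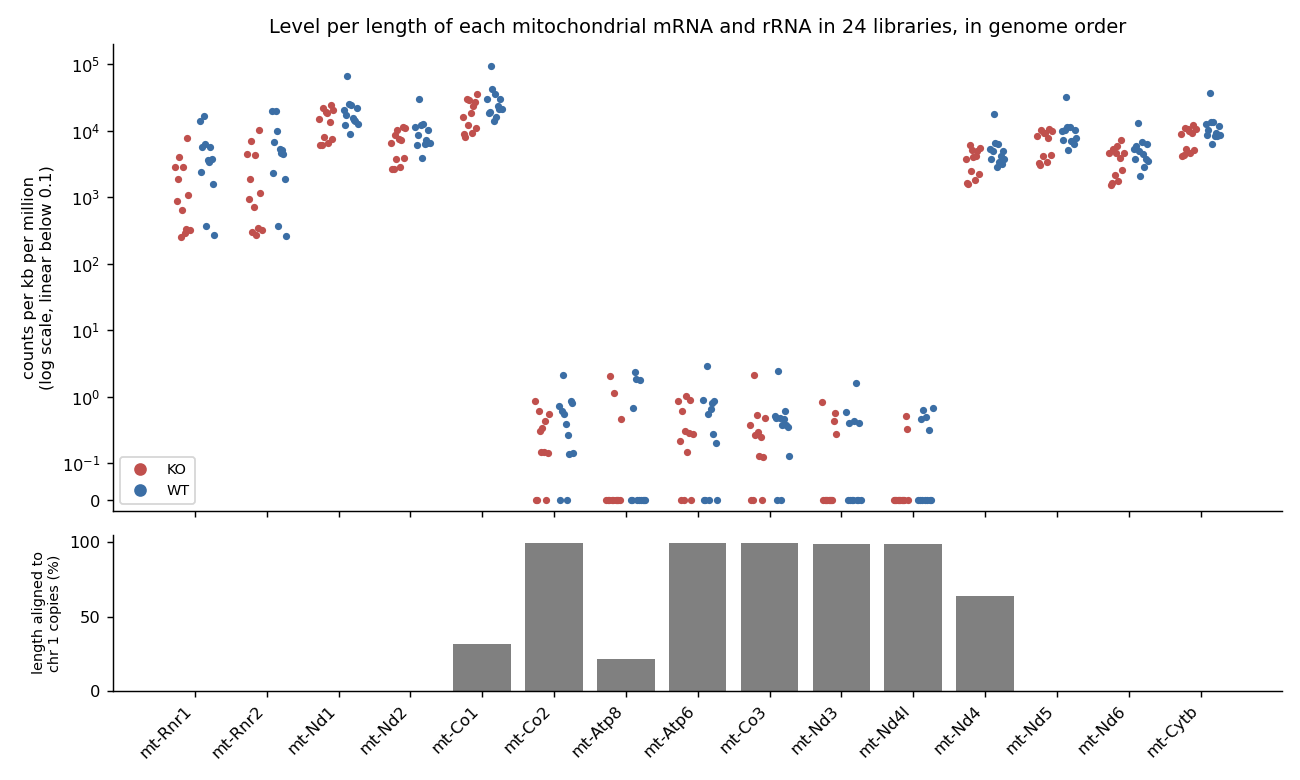
CPM per kilobase of gene of each mitochondrial rRNA and mRNA in genome order (vertical axis logarithmic above 0.1 and linear below it), with KO left and WT right and a point for each of 12 libraries per genotype; the lower bars give the percent of each gene's length that aligns to the chromosome 1 pseudogenes. The 6 mRNAs from mt-Co2 to mt-Nd4l sit at or near 0 in both genotypes, while their neighbours mt-Co1 and mt-Nd4 and all other mRNAs are at 1503 or more.

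Levels of the 7 countable mRNAs are compared with each other per length, as CPM per kilobase of gene. mt-Co1 (chrM:5328-6872), the catalytic subunit of cytochrome c oxidase, was the most abundant, with a median of 21073 over the 24 libraries and 30657 when only the part outside the pseudogene match was taken as its length. mt-Nd1 (chrM:2751-3707), the complex I subunit beside the quinone site, followed with 15216, and then mt-Cytb (chrM:14145-15288), the cytochrome b of complex III, with 9138. Of the membrane subunits of complex I that belong to its proton-pumping arm, mt-Nd5 (chrM:11742-13565) had 7882 and mt-Nd2 (chrM:3914-4951) 7199. mt-Nd6 (chrM:13552-14070), a further membrane subunit of complex I and the only mRNA coded on the light strand, had a median of 4461. mt-Nd4 (chrM:10167-11544), also of the proton-pumping arm, was lowest at full length with 4045, but stood between mt-Nd1 and mt-Cytb with 11104 when the matched part of the gene was left out of its length. The libraries of one gene ranged further than most neighbours in this order lie apart, for instance from 3070 to 31431 for mt-Nd5 and from 2652 to 29329 for mt-Nd2. mt-Nd6 overlaps the end of mt-Nd5 on the other strand. The kit keeps strand, but the strand setting of the counting is not given in the sources used here, so the counts of mt-Nd6 may hold reads from the opposite strand.

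The share of all counts held by the 13 mRNAs is a sum over the members and is described with no test. A lower share in a bulk sample can mean fewer cells rich in mitochondria or less mitochondrial RNA per cell, and the counts cannot tell these apart. By the diets in the study's methods, loss of Bmal1 and doxycycline food also cannot be told apart in any KO minus WT difference given here. At ZT1 the 3 KO libraries held 7.83%, 3.62% and 3.46% and the WT libraries 12.0%, 7.62% and 9.48%. All but the first KO library lay below every WT library, and that one lay inside the WT range. At ZT7 the mRNA share was 11.7%, 4.84% and 11.2% in KO, against 36.98%, 14.9% and 5.53% in WT. The spread inside WT, set mainly by its first library, was wider than the gap between the genotypes.

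At ZT13 the libraries held 9.01%, 3.81% and 8.85% in KO, against 13.8%, 7.49% and 8.74% in WT, and at ZT19 11.9%, 4.62% and 12.5% in KO, against 7.98%, 11.9% and 8.23% in WT. The genotypes overlapped at both times. Group means ± SD (n = 3) were 4.97% ± 2.48, 9.26% ± 3.83, 7.22% ± 2.96 and 9.70% ± 4.41 from ZT1 to ZT19 in KO, and 9.69% ± 2.18, 19.1% ± 16.1, 10.0% ± 3.37 and 9.39% ± 2.22 in WT. KO was therefore lower than WT on average at ZT1, ZT7 and ZT13 and close to it at ZT19. Over the 12 libraries of a genotype the lowest, median and highest shares were 3.46%, 8.34% and 12.5% in KO and 5.53%, 9.11% and 36.98% in WT. The KO minus WT difference averaged over time points was -4.27 percentage points, and it was -2.04 points without the first WT library at ZT7.

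**Figure D2:**
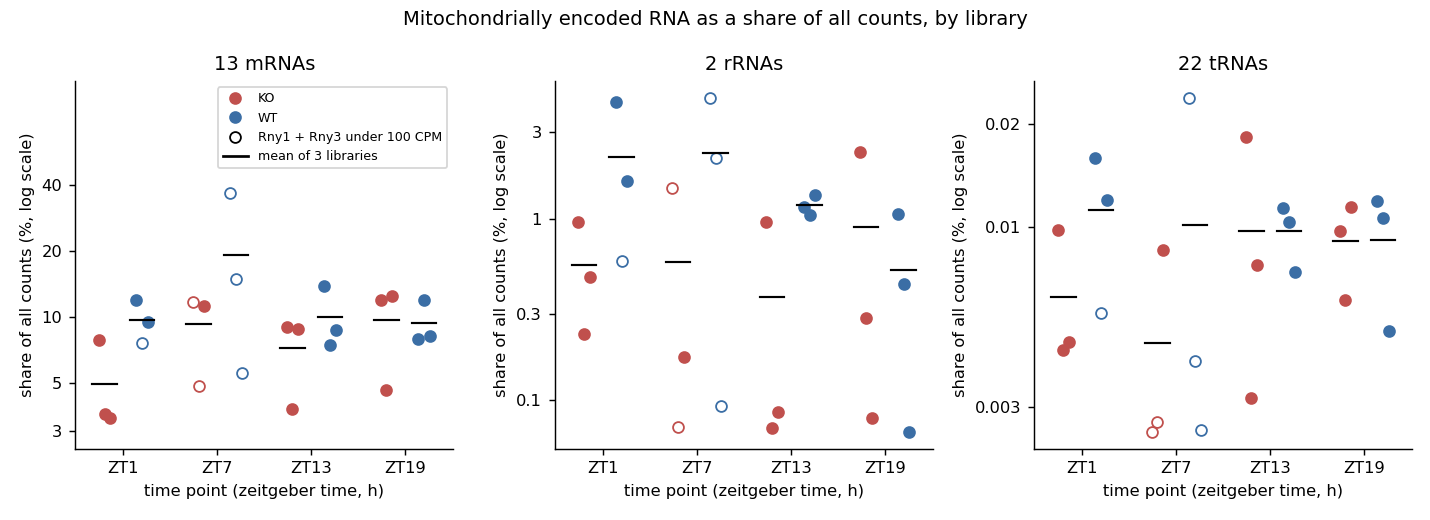
Share of all counts (percent, logarithmic axes) held by the 13 mRNAs, 2 rRNAs and 22 tRNAs in each library by time point, with KO left of WT, bars at the mean of 3 libraries, and open circles for the 6 libraries with Rny1 and Rny3 together under 100 CPM. The mRNA shares run from 3.46% to 36.98% with KO and WT overlapping at every time point, the rRNA shares do not overlap at ZT13, and 5 of the 6 open circles are at ZT7.

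Striated muscle is rich in mitochondria, and the median mRNA share was higher in the muscle-rich libraries of both genotypes. In libraries over 30000 CPM of muscle markers the mRNA share was 8.85%, 11.2% and 12.5% in the 3 KO libraries, and had a lowest, median and highest value of 8.23%, 12.0% and 14.9% in the 6 WT libraries. Below that limit it was 3.46%, 4.84% and 11.9% (lowest, median and highest) in 9 KO libraries and 5.53%, 7.80% and 36.98% in 6 WT libraries. KO medians were below WT medians in both classes, with overlapping ranges in both. The first WT library at ZT7, with the highest share, had the least muscle marker RNA (8328 CPM) and the least RPE marker RNA (412 CPM) of all, and its total was the smallest. The averaged difference in the mRNA share was -4.33 points without the muscle-rich libraries and -3.10 points without the 5 libraries rich in receptor genes. Leaving out the muscle-rich libraries moved the difference from -4.72 to -3.58 points at ZT1 and from -2.80 to -1.08 at ZT13. At ZT7, where the first WT library stayed in, it moved from -9.87 to -12.97, and at ZT19 from 0.32 to 0.30. WT at ZT13 and at ZT19 then rested on a single library each. The part that cell content had in the difference was not tested beyond these values.

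Inside the mRNA pool the proportions of the 7 genes covered narrower ranges than the mRNA share of all counts. mt-Co1 held 30.9% to 43.7% of the mRNA counts of a library, with a mean of 37.4% ± 3.57 in KO and 38.3% ± 3.47 in WT libraries (SD, n = 12 each). mt-Nd1 held 16.7% ± 1.54 in KO and 16.6% ± 1.37 in WT, and mt-Nd5 16.3% ± 1.33 in KO and 15.9% ± 1.66 in WT. Genotype means of these genes lay closer together than 1 SD. The coefficient of variation over the 24 libraries was 7.19% to 9.22% for the 6 heavy-strand mRNAs. The mRNA share of all counts ran from 3.46% to 36.98%, a 10.7-fold range set by 1 library, with 14.9% as the next highest share. mt-Nd6 on the light strand varied most, from 1.67% to 3.38% of the mRNA counts with a coefficient of variation of 19.9%, and it averaged 2.51% ± 0.465 in KO and 2.35% ± 0.512 in WT.

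**Figure D3:**
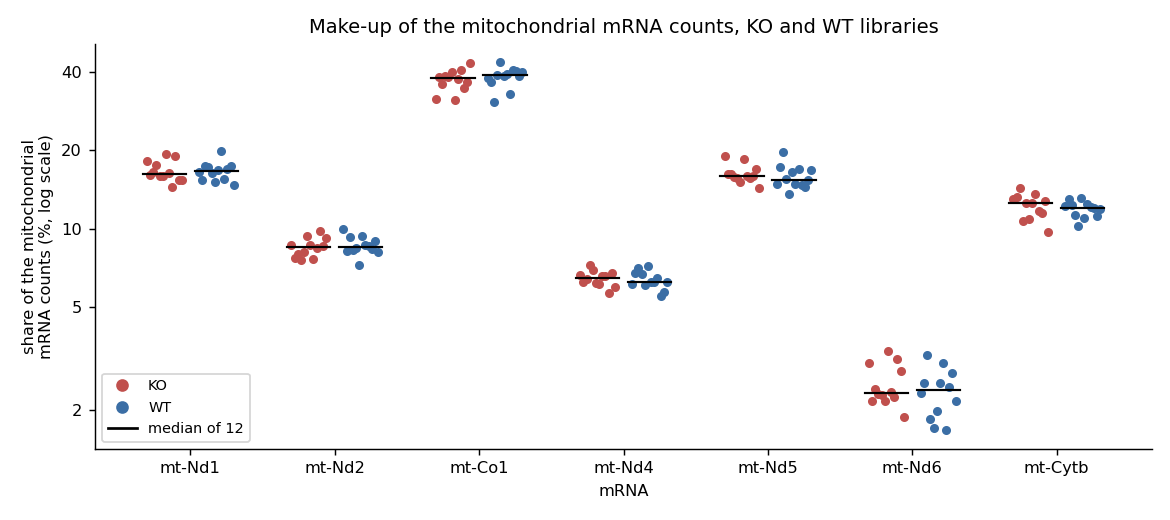
Share of the mitochondrial mRNA counts (percent, logarithmic axis) held by each of the 7 countable mRNAs, with KO left and WT right, a point for each of 12 libraries per genotype and a bar at their median. The ranges of KO and WT overlap for every gene, and mt-Nd6 has the widest spread for its level.

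The 2 rRNAs of the mitochondrial ribosome, mt-Rnr1 of the small (chrM:70-1024) and mt-Rnr2 of the large subunit (chrM:1094-2675), varied more than the mRNAs. Libraries were made from total RNA with a depletion step that targets rRNA, so what is counted is what that step left. Their joint share of all counts ran from 0.0668% to 4.65%. At ZT1 it was 0.967%, 0.232% and 0.476% in KO, against 4.3998%, 0.587% and 1.61% in WT. At ZT7 it was 1.49%, 0.0715% and 0.172% in KO, against 4.65%, 2.18% and 0.0931% in WT. The genotypes overlapped at both time points, and the 3 WT libraries at ZT7 alone covered a 49.9-fold range.

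At ZT13 the rRNA share was 0.957%, 0.0701% and 0.0860% in KO, against 1.17%, 1.05% and 1.36% in WT. This was the only time point at which the 2 genotypes did not overlap, although the first KO library came close to the WT range. At ZT19 the values were 2.34%, 0.282% and 0.0802% in KO, against 1.06%, 0.440% and 0.0668% in WT, with the highest library in KO and the lowest in WT. The rRNA counts per 100 mRNA counts had a median of 6.26 in KO and 12.9 in WT and ranged from 0.639 to 36.7 over all libraries. mt-Rnr2 and mt-Rnr1 moved together, since their ratio stayed between 1.503 and 2.85. Per length, medians were 3303 for mt-Rnr2 and 2608 for mt-Rnr1 (CPM per kilobase), below each of the 7 countable mRNAs.

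Of the 22 tRNAs, 7 had no count in any library, 10 had 1 to 32 counts over all 24 libraries, and mt-Tv (valine) and mt-Tl1 (leucine) had 151 and 82. The other 3 had a median of 10 or more counts per library. They are mt-Tm (methionine), mt-Tp (proline) and mt-Tc (cysteine), and mt-Tm and mt-Tp together held 94.0% of all tRNA counts. Their genes are printed because the tRNA results turn on them, with the anticodon in capitals, from the GENCODE M21 transcripts on mm10, 5′ to 3′ along the tRNA. mt-Tm lies at chrM:3845-3913 (plus strand), mt-Tc at chrM:5192-5257 (minus strand) and mt-Tp at chrM:15356-15422 (minus strand).
mt-Tm: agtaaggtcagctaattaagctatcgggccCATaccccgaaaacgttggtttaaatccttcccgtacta
mt-Tc: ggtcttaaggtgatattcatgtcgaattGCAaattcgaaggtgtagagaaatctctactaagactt
mt-Tp: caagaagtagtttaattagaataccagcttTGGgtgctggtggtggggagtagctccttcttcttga

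The tRNA share of all counts ran from 0.00254% to 0.0238%. Its means ± SD (n = 3) from ZT1 to ZT19 were 0.00628% ± 0.00306, 0.00460% ± 0.00343, 0.00975% ± 0.00774 and 0.00911% ± 0.00270 in KO and 0.0112% ± 0.00520, 0.0101% ± 0.0118, 0.00971% ± 0.00204 and 0.00918% ± 0.00367 in WT. The genotypes overlapped at every time point. At 95% the Wilson interval reached at most 0.395% of the value to each side for an mRNA share, 3.33% for an rRNA share and 25.3% for a tRNA share, which covers counting error only.

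mt-Tm split the libraries into a low class and the rest, each of which held both genotypes. It had 0 to 7 counts in 6 libraries, 0 to 3.38 CPM, and 17.1 to 130 CPM in the other 18. In the 2 of the 6 with no count, 3 counts would be 0.553 CPM (the second WT library at ZT1) and 0.621 CPM (the second KO library at ZT7), which is the limit a count of 0 allows. The 6 are the first and second KO libraries at ZT7, all 3 WT libraries at ZT7 and the second WT library at ZT1. At ZT7 the third KO library, with 48.0 CPM, was the only one outside the low class, and since all WT libraries at ZT7 were low, ZT7 and this property of the libraries cannot be told apart in WT, where 1 library of another time point was low as well.

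Other short RNAs were low in the same 6 libraries. Rny1 and Rny3, the Y RNAs of the Ro ribonucleoprotein, summed to 2.77 to 47.8 CPM in them and 311 to 7624 CPM in the other 18, and small nucleolar RNAs of 81 to 150 bases to 123 to 237 CPM in them and 407 to 780 CPM in the others. mt-Tc reached at most 0.483 CPM in the 6 libraries and 0.296 to 9.02 CPM in the others. mt-Tp did not follow this pattern, with 24.5 to 231 CPM in the 6 libraries and 12.6 to 45.6 CPM in the others. The part that the lower short RNA content of these libraries had in the mt-Tm values was not tested. The limit of 100 CPM of Y RNA that marks these libraries was chosen after the values were seen.

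**Figure D4:**
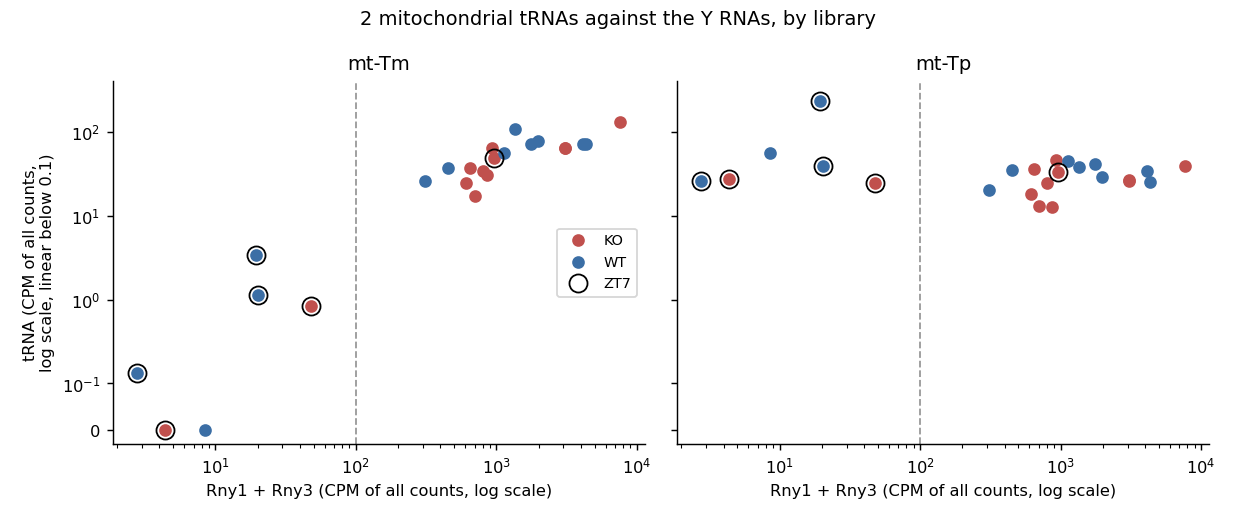
mt-Tm (left) and mt-Tp (right) in CPM against the summed CPM of the Y RNAs Rny1 and Rny3 in each of the 24 libraries (logarithmic axes, the vertical one linear below 0.1), coloured by genotype, with rings around the ZT7 libraries and a dashed line at 100 CPM. The 6 libraries left of the line have at most 3.38 CPM of mt-Tm, against 17.1 CPM or more right of it, while mt-Tp covers a similar range on both sides apart from 1 library at 231 CPM.

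Genes were then tested one by one for a KO minus WT difference, with edgeR's quasi-likelihood test over the 24965 genes that passed a filter on low counts. Of the 37 members 13 passed, the 7 countable mRNAs, both rRNAs, mt-Tm, mt-Tc, mt-Tp and mt-Tv. Averaged over the time points, 0 of 13 members had an adjusted p under 0.05, against 0% of all genes tested, and DESeq2 and limma-trend called 0 members as well. At an unadjusted p under 0.05 the count was 10 of 13 members, against 6.34% of all genes. The members share their libraries, their chromosome and in part their precursor RNA, so these are not 10 separate results. All 7 mRNAs had a negative averaged difference, with a median of -0.91 on the log2 scale, against a median of -0.04 over all genes.

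mt-Cytb had a log2 difference of -0.90 ± 0.31 (standard error, edgeR adjusted p = 0.755), mt-Co1 one of -0.97 ± 0.34 (adjusted p = 0.755), and mt-Nd6 the smallest of the mRNAs, -0.79 ± 0.35 (adjusted p = 0.762). The other 4 mRNAs lay between -0.95 for mt-Nd2 and -0.87 for mt-Nd5. Both rRNAs had larger differences with larger errors, mt-Rnr1 -1.67 ± 0.66 (edgeR adjusted p = 0.755) and mt-Rnr2 -1.49 ± 0.71 (adjusted p = 0.784). mt-Tp differed by -1.10 ± 0.34 (edgeR adjusted p = 0.755), mt-Tm by 0.65 ± 0.69 (adjusted p = 0.931), mt-Tv by 0.25 ± 0.81 and mt-Tc by -0.0049 ± 0.67. The difference of mt-Tm was -0.82 without the third KO library at ZT7 and -1.28 with a term for the 6 libraries low in Y RNA, and that of mt-Tv was -0.83 and -1.25 under the same changes. For no member was the difference larger than the spread between mice allows at the adjusted threshold. Without the first WT library at ZT7 the median of the 7 mRNAs was -0.54. Then 3 of 14 members had an unadjusted p under 0.05, against 1701 of 26113 genes. With library size alone as the scaling this count was 6 of 13, against 2708 of 24965 genes.

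The difference was not the same size at each time point, but a test of genotype by time called 0 of 13 members (0% of all genes). At an unadjusted p under 0.05 it had 0 members, against 2.06% of all genes. With single libraries left out this was 0 to 3 members, for instance 3 without the third WT library at ZT7 (777 of 26275 genes). At ZT1 the median log2 difference of the 7 mRNAs was -1.36, with 4 of 13 members at an unadjusted p under 0.05 against 9.99% of all genes. That count was 0 without the first WT (1759 of 26296 genes) or the second KO library (2345 of 27627 genes) at ZT1. It was also 0 without the third KO library at ZT1. When other single libraries were left out it ran up to 9, among them the first WT library at ZT7 (2858 of 26113 genes). The count was 11 of 13 in the blocked fit (replicate numbers added as a term), against 2927 of 24965 genes. With a term for the muscle-rich libraries it was 1 of 13, against 2353 of 24965 genes. mt-Co1 had 24749, 13856 and 12541 CPM in KO at ZT1, against 45646, 28075 and 29258 CPM in WT. Its KO libraries were all below its WT libraries, and the log2 difference was -1.42 ± 0.69 (edgeR adjusted p = 0.509). For each other countable mRNA the ranges overlapped, since the first KO library lay above the second WT library. For mt-Nd1 these were at 14237 and 11772 CPM. mt-Tp had 26.2, 18.1 and 12.6 CPM in KO, against 37.9, 56.0 and 34.1 CPM in WT. The mt-Tp ranges did not overlap, and the log2 difference was -1.51 ± 0.69 (edgeR adjusted p = 0.462). The share of all genes with separate ranges at ZT1 was not counted. Here 0 of 13 members were called, against 0% of all genes. A fit of the 6 libraries at ZT1 alone called 1 of 13 members, mt-Tp (log2 difference -1.45, edgeR adjusted p = 0.0158), against 4.38% of all genes. Muscle and rod markers also separated the genotypes at ZT1. Muscle markers summed to 9143 to 11698 CPM in KO, against 13404 to 40801 CPM in WT, and rod markers to 5489 to 12970 CPM in KO, against 665 to 2313 CPM in WT. The 4 lens markers summed to 45.1, 8119 and 4851 CPM in KO, against 34.7 to 286 CPM in WT, with the first KO library inside the WT range. Beyond the fit with the muscle term, the part of these cells in the ZT1 differences was not tested.

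At ZT7 the median of the 7 mRNAs was -1.75 on the log2 scale, with 0 of 13 members called (0% of all genes) and 10 of 13 at an unadjusted p under 0.05 against 4.32% of all genes. Of these 10, mt-Tm was higher in KO and the others were lower. That count was 1 of 14 without the first WT library at ZT7 (508 of 26113 genes). Without the second KO library at ZT7 it was 2 of 15 (1082 of 27581 genes). With limma-trend it was 1 of 13 (1753 of 24965 genes), and with library size alone 3 of 13 (2017 of 24965 genes). Without the libraries rich in receptor genes it was also 3 of 13, against under 4.32% of all genes. A fit of the 6 ZT7 libraries alone gave 1 of 10, against 370 of 19022 genes. mt-Co1 had 45593, 18615 and 45110 CPM in KO, against 145133, 65038 and 21488 CPM in WT. The first 2 WT libraries were above and the third WT library inside the KO range, and the log2 difference was -1.80 ± 0.70 (edgeR adjusted p = 0.929). Without the first WT library at ZT7 the median of the 7 mRNAs was -0.32, and without the libraries rich in receptor genes it was -0.53. mt-Tm had 0.831, 0 and 48.0 CPM in KO, against 3.38, 1.12 and 0.132 CPM in WT. Its log2 difference of 3.75 ± 1.76 (edgeR adjusted p = 0.929) came with a single library above 3.38 CPM, the third KO library, which is also the only one of the 6 ZT7 libraries with Y RNA over 100 CPM.

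At ZT13 and ZT19 the calls were again 0 of 13 (0% of all genes at both), and no member had an unadjusted p under 0.05, against 0.609% of all genes at ZT13 and 2.36% at ZT19. At ZT13 this became 2 of 13 with the replicate block (186 of 24965 genes) or without the libraries rich in receptor genes (491 of 23164 genes). It became 2 of 14 without the first KO library at ZT13. The median of the 7 mRNAs was -0.66 at ZT13 and 0.13 at ZT19 (log2), with 7 of 7 negative at ZT13 and 0 of 7 at ZT19, and the ZT19 median ran from -0.13 to 0.49 when single libraries were left out. mt-Rnr1 had a log2 difference of -2.09 ± 1.33 at ZT13 (edgeR adjusted p = 1) and 0.86 ± 1.29 at ZT19 (adjusted p = 1), with an error above the difference at ZT19.

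**Figure D5:**
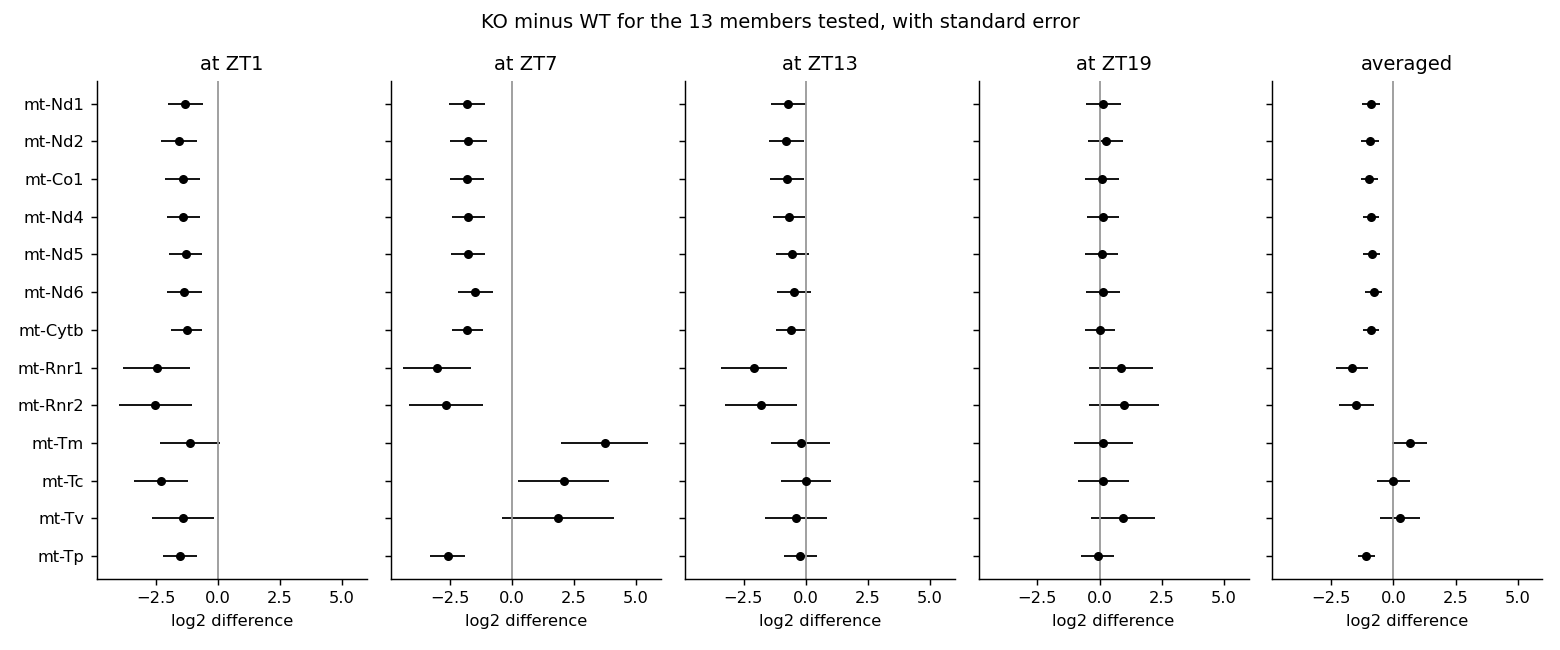
KO minus WT differences (log2, points) with their standard errors (lines) for the 13 members tested, at ZT1, ZT7, ZT13 and ZT19 and averaged over them. The mRNAs lie left of 0 at ZT1, ZT7 and ZT13 and at or right of 0 at ZT19, the rRNA lines reach 1.29 to 1.49 log2 units to each side at single time points, and mt-Tm at ZT7 lies at 3.75.

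Time of day was tested within each genotype, as the study did, and over both. In KO 0 of 13 members were called, against 0.00445% of all genes, and 0 had an unadjusted p under 0.05 (2.16% of all genes). In the fit blocked by replicate number 8 of 13 did, as did 2096 of all 22481 genes tested, and 0 members were called. In WT 0 of 13 members were called, against 0% of all genes, and mt-Tm, mt-Tc and mt-Tp had an unadjusted p under 0.05 (2.62% of all genes), with an edgeR adjusted p of 1 for each. The 3 of 13 became 10 of 13 without the third WT library at ZT7 (844 of 24426 genes). With the replicate block they became 1 of 13 (545 of 22289 genes). mt-Tm and mt-Tc were low in the 3 WT libraries at ZT7. Without the filter on low counts 5 of 29 members were called in WT, namely both rRNAs and these 3 tRNAs, against 1.69% of all genes. Over both genotypes 0 of 13 members were called, against 0.0361% of all genes. There mt-Co1, mt-Nd4 and mt-Tp had an unadjusted p under 0.05 (3.11% of all genes). That count ran from 0 to 7 when single libraries were left out, the 7 without the third WT library at ZT7 (875 of 26275 genes). Without the third KO library at ZT7, mt-Tm was called over both genotypes (edgeR adjusted p = 0.0395), against 0.232% of all genes. DESeq2 and limma-trend called 0 members in each of the 3 tests of time. The mRNA share of both genotypes together averaged 7.33% ± 3.32 at ZT1, 14.2% ± 11.8 at ZT7, 8.62% ± 3.22 at ZT13 and 9.54% ± 3.13 at ZT19 (SD, n = 6 each), and the ranges of the 4 time points overlapped.

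The nuclear genes that serve the mitochondrial chromosome were set beside it. Of 27 genes for mitochondrial transcription and RNA processing 24 were tested, with 0 called in any comparison (0% to 0.0361% of all genes). Their averaged differences were 12 positive and 12 negative, with a median of -0.01 (log2). At ZT1 13 were positive and 11 negative, and at ZT7 15 and 9. At ZT13 they were 6 and 18, and at ZT19 12 and 12. An unadjusted p under 0.05 (edgeR) was seen for 1 of 24 at ZT1, against 9.99% of all genes, and 1 of 24 at ZT7, against 4.32%. The 6 genes for copying mitochondrial DNA had a median of 0.01 and the 6 nuclear regulators one of -0.04, against -0.04 over all genes tested. In either list 0 were called, and so few of all genes were called that this says little about the lists. The regulators were 3 positive and 3 negative at ZT1, 1 and 5 at ZT13, and 6 and 0 at ZT19. At ZT1 1 of 6 had an unadjusted p under 0.05, against 9.99% of all genes. This was Esrra, with a log2 difference of -0.71 ± 0.24 (edgeR adjusted p = 0.343). Polrmt, the mitochondrial RNA polymerase, had a median of 16.7 CPM (scaled by the trimmed mean of M values, TMM) in KO and 16.9 CPM in WT libraries. Its log2 difference was -0.09 ± 0.20 (edgeR adjusted p = 0.986).

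Tfam, which packs the chromosome and starts its transcription, had a median of 9.34 CPM in KO and 11.6 CPM in WT, with a log2 difference of -0.29 ± 0.15 (edgeR adjusted p = 0.793). Lrpprc, which stabilises mitochondrial mRNAs, had medians of 33.9 CPM in KO and 30.2 CPM in WT, with a log2 difference of 0.13 ± 0.10 (edgeR adjusted p = 0.895). Ppargc1a, a coactivator of mitochondrial gene programmes, had medians of 57.4 CPM in KO and 59.01 CPM in WT, with a log2 difference of -0.16 ± 0.14 (edgeR adjusted p = 0.909). The ranges of KO and WT libraries overlapped for all 4 genes. Slirp, the partner of Lrpprc, and Mterf1b were too low to be tested, with 0 to 3 and 0 to 10 counts per library, and Prorp was not matched by its symbol.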

How the data were processed

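RNA of RPE from 24 mice, 3 for each of 2 genotypes and 4 time points, was sequenced as stranded total RNA after rRNA depletion (Ribo-Zero Plus, Illumina HiSeq). The authors aligned reads to mm10 with Bowtie2 and counted uniquely aligned reads per gene with HTSeq, and the submitters' processing notes give versions 2.3.4 and 0.9.1. The deposited values are raw, unnormalized counts for each gene, and the strand setting of the counting is not given in the sources used here. The count columns are named by diet, time point and replicate, and the control and doxycycline columns were assigned to WT and KO through the diets in the study's methods. A further 11 columns, with values in 30 rows, match no sample and were not used. The filters for photoreceptor and choroid genes that the study describes are not applied in these counts.

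Members were matched by Ensembl identifier to GENCODE M21 (52093 of 53700 identifiers matched, 1607 did not). Members and gene lists were chosen with earlier results of these data known. Shares are member counts over all counts of a library, and CPM (counts divided by all counts of the library, scaled) are without TMM unless it is named. Members were aligned to nuclear transcripts with blastn at 95% identity or more. Genes were tested with the quasi-likelihood F-test of edgeR 4.0.16 in R 4.3.3 (TMM, filterByExpr by group at 10 counts, Benjamini-Hochberg adjusted p under 0.05 over all genes tested, no covariates). KO minus WT and genotype by time used all 24 libraries, and time within a genotype its 12. The code was tested on simulated data. DESeq2 1.42.0, limma-trend (limma 3.58.1, prior count 2), other scalings and filters, left-out libraries and added terms were tried as alternatives. Genes to be named were all members, with the mRNAs and rRNAs and the tRNAs with a median of 10 counts or more described singly, and Polrmt, Tfam, Lrpprc, Slirp and Ppargc1a of the nuclear lists where none was called. Esrra was named after its values were seen.

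Total counts of 2069527 to 10572612 leave mRNA and rRNA shares with little counting error and tRNA shares with much. Each library is a separate mouse, and p-values measure the spread between mice. The replicate numbers of the labels were not taken as pairing the mice, since no source ties them to a litter, batch or day and only some same-number correlations were over 0.1.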

Additional observations from a re-analysis of the deposited data

How the results depend on the processing

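No alternative called a member except in 3 cases. Time in WT without the filter on low counts called 5 of 29 members (mt-Rnr1, mt-Rnr2, mt-Tm, mt-Tc and mt-Tp; 1.69% of all genes), KO minus WT at ZT1 on the 6 libraries of that time point alone called 1 (mt-Tp, log2 -1.45, edgeR adjusted p = 0.0158; 4.38% of all genes), and time over both genotypes called between 0 and 1 when single libraries were left out, the 1 being mt-Tm without the third KO library at ZT7 (edgeR adjusted p = 0.0395; 0.232% of all genes). The cause was not tested. Over 34 alternatives the averaged difference of each of the 7 mRNAs, both rRNAs and mt-Tp stayed negative, from -1.08 to -0.64 for mt-Co1, with adjusted p values from 0.134 (mt-Tp) to 1. Scaling by library size alone placed the median of all genes at 0.16 and that of the 7 mRNAs at -0.59 (log2).

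The averaged median of the 7 mRNAs ran from -0.996 to -0.54 over left-out libraries. At ZT7 it was -1.01 with library size alone and -0.53 without the libraries rich in receptor genes, and it ran from -2.18 to -0.32 over left-out libraries, the last without the first WT library. The tRNA share at ZT19 differed by -0.00395 percentage points without the muscle-rich libraries. Averaged differences changed sign for mt-Tm with a term for the libraries low in Y RNA (-1.28) and without the third KO library at ZT7 (-0.82; 0.92 as the highest value over left-out libraries). mt-Tv changed sign with limma-trend (-0.12), with the Y RNA term (-1.25) and for 3 left-out libraries, with -0.83 to 0.91 over all of them, and mt-Tc, which lies at 0, with library size alone (0.20), nuclear genes only for the scaling (0.014), median of ratios factors (0.014), no filter (0.048), the muscle term (0.28) and for 13 left-out libraries (-1.46 to 0.22 over all). Without the second WT library at ZT13 the averaged test called 319 genes, against 0 with it, and 0 members. mt-Tc had 0 to 86 counts per library, and depth as a limit was not tested.

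The replicate number as a block, which was not taken as a pairing (6 of 12 same-number correlations over 0.1, from -0.319 to 0.407; 14 of 24 libraries closest to their own number), called 0 members in all 9 tests, left the averaged median of the 7 mRNAs at -0.94 and gave 37 genes for time in KO, against 1 without it. Whether the numbers mark a batch is not given in the sources used here; all 5 libraries rich in receptor genes are numbered 1. The terms and exclusions for Y RNA and muscle were chosen after seeing the data.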

Other observations

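The amount of mitochondrial rRNA counted in a library differed between the replicate numbers of the labels. The rRNA counts per 100 mRNA counts had a median of 12.6 (8.44 to 36.7) in the 8 libraries numbered 1, of 6.26 (1.48 to 14.6) in the 8 numbered 2 and of 1.61 (0.639 to 17.0) in the 8 numbered 3. Median total counts of the same libraries were 3911320, 6109120 and 9975220. The ranges overlapped, and what the numbers stand for is not given in the sources used here.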
